A study of Mus musculus with 6 samples.

Results

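Ribosomes are built in the nucleolus, where RNA polymerase I transcribes the ribosomal RNA precursor, small nucleolar ribonucleoproteins (snoRNPs) modify it, and assembly factors cleave, fold and package it into the small and the large subunit. T cells that leave quiescence after antigen receptor stimulation enlarge their nucleoli and raise this machinery before they divide, and the transcription factor MYC is a known driver of many of its genes. The genes described here are the mouse genes whose symbols begin with Nop, Utp, Rrp or Nol followed by a digit, the RNA polymerase I subunits Polr1a to Polr1e, and Fbl, Ncl, Npm1, Dkc1, Gar1, Wdr12, Wdr43, Wdr74 and Wdr75, without pseudogenes and with a mean of at least 1 CPM (counts scaled to 1000000 per library). Of the 52856 rows of the count table, 51 had such a symbol and 48 were kept. The pseudogene Utp14b-ps1 was left out, and so were Nol3 and Nol4, whose mean levels of 0.565 and 0.0069 CPM lay below the limit, while Nol4l, the lowest member, had 12.6 CPM. The rule used symbols and the mean over all libraries, not the difference between groups, but it was chosen with earlier results of these data known. Nol4l shares only its symbol with the others and is not known as a ribosome biogenesis factor.

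RNA was sequenced from splenic CD4+ T cells of 8-week-old C57BL/6 mice that were either miPEP31-/- (miPEP31 KO, 3 libraries) or wild type (WT, 3 libraries). miPEP31 is a small peptide whose reading frame lies in the precursor transcript of miR-31. All cells, of both genotypes, had received anti-CD3 and anti-CD28 stimulation for 48 hours, so no unstimulated state is compared. The labels do not say how the allele was made, how pure the cells were, or whether libraries came from separate mice, so p-values measure the spread between these libraries, which may be technical. Mir31 itself had 0 counts in all 6 libraries and does not check the genotype labels.

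Library totals lay between 22865487 and 26295776 counts. The KO libraries were less alike than the WT libraries. On the second principal component of all 14387 tested genes, KO replicates 1, 2 and 3 stood at 31.8, -3.44 and -35.5, and the WT libraries between 1.22 and 3.92. The 7 CD4 T cell markers (Cd3d, Cd3e, Cd3g, Cd4, Trac, Trbc2 and Cd28) were all present and summed to 1209 to 1298 CPM in KO and 1540 to 1655 CPM in WT libraries. All but Cd28 were lower in every KO than in every WT library. Cd28 had 158, 181 and 228 CPM in KO replicates 1, 2 and 3 and 213, 186 and 191 CPM in WT replicates 1, 2 and 3. Among 6 macrophage markers, Mpeg1 had 62.5, 37.9 and 27.8 CPM in KO and 1.08, 0.928 and 1.74 CPM in WT libraries, but Adgre1 and Fcgr1 were at 0 in all libraries, Csf1r and Lyz2 stayed below 0.5 CPM, and Cd68 had 2.63, 3.98 and 5.11 CPM in KO and 7.53, 4.85 and 4.001 CPM in WT libraries. The sum of the list, 33.5 to 65.4 CPM in KO and 5.83 to 8.70 CPM in WT libraries, thus rested on Mpeg1. The sum of 6 dendritic cell markers, 12.03 to 13.1 CPM in KO and 6.25 to 7.58 CPM in WT libraries, was mostly Zbtb46, with Clec9a at 0. Summed B cell markers (5 genes) were 56.7 to 103 CPM in KO and 50.8 to 75.8 CPM in WT libraries. In bulk RNA, fewer cells of a type and less RNA per cell cannot be told apart.

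Most nucleolar factors did not pass the test of genotype, and those that did changed by less than 2-fold. Of the 48 members, 8 were lower and 3 higher in KO (edgeR quasi-likelihood test, Benjamini-Hochberg adjusted p under 0.05 over all tested genes), and 37 were not called. That is 22.9% of the members, where 47.3% of the 14387 tested genes were called. Calls in the lower direction took 8 of 48 members against 22.2% of all genes, and calls in the higher direction 3 of 48 against 25.1%. An unadjusted p under 0.05 was reached by 14 members and by 54.5% of all tested genes. The median log2 fold change, KO over WT, was -0.04 over the members and 0.01 over all tested genes. With plain library sizes in place of TMM scaling (trimmed mean of M values), 3 members were higher and 5 lower, where 28.4% and 19.7% of all tested genes were. DESeq2 called 3 members higher and 10 lower (23.5% and 22.9% of all genes it tested), and limma-voom 3 and 8 (24.7% and 22.7%). The members that fell were Rrp1b, Nop53, Utp14a, Npm1, Rrp12, Ncl, Fbl and Rrp1, and those that rose were Utp23, Nop10 and Rrp36. Values below are CPM after TMM scaling, given for replicates 1, 2 and 3 in turn, and levels are compared between libraries but not between genes, since CPM is not corrected for transcript length.

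**Figure D1:**
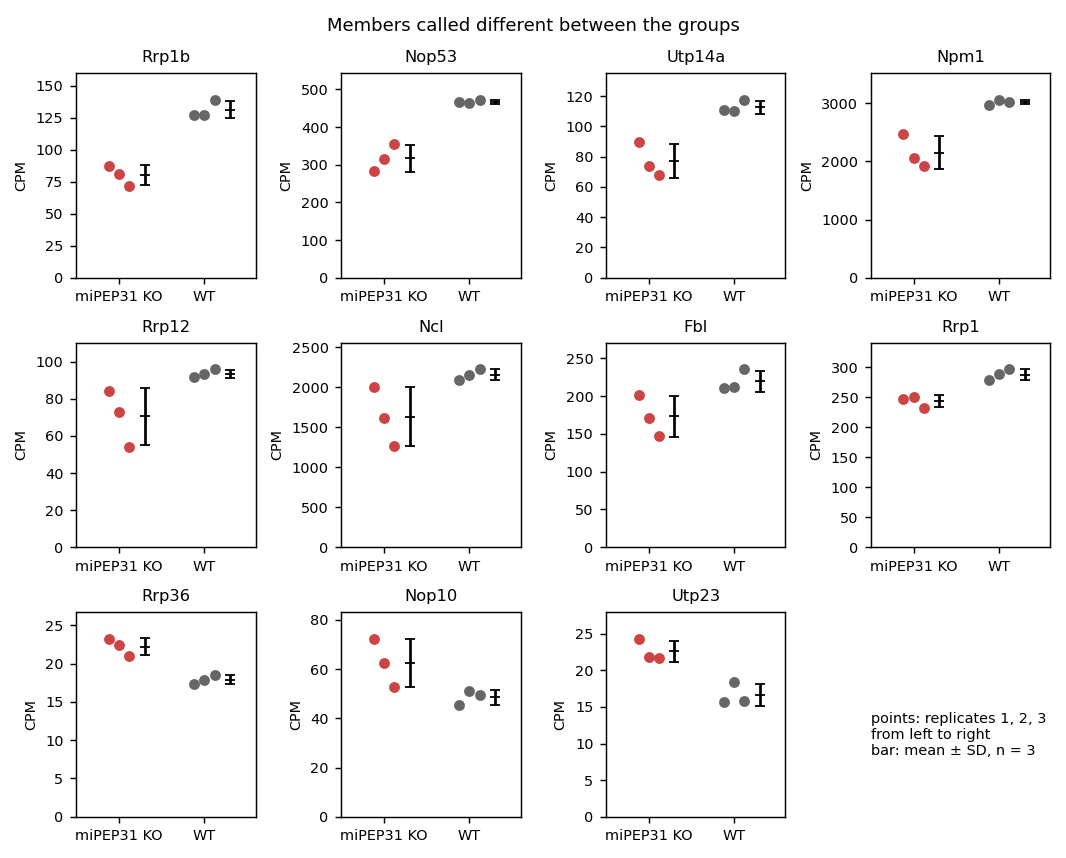
CPM (vertical axes, from 0) of the 11 members called different, in miPEP31 KO and WT libraries; points are replicates 1, 2 and 3 from left to right, and bars are the mean ± SD, n = 3. In each panel the KO points lie all below the WT points (8 panels, from Rrp1b to Rrp1) or all above them (Rrp36, Nop10 and Utp23).

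RNA polymerase I transcribes the ribosomal RNA genes, and 0 of its 5 measured subunit genes were called, where 47.3% of all tested genes were. Polr1a, the catalytic large subunit, had 136, 114 and 84.6 CPM in KO libraries and 130.1, 129 and 136 CPM in WT libraries. Polr1b, the other subunit that forms the active centre, had 71.1, 51.3 and 36.3 CPM in KO and 61.4, 60.03 and 71.5 CPM in WT libraries. For both genes KO replicate 1 lay within the WT range and KO replicate 3 far under it, so the groups overlapped. Their log2 fold changes were -0.24 (SE 0.15, adjusted p = 0.218 by edgeR) and -0.28 (SE 0.21, adjusted p = 0.302 by edgeR). Without KO replicate 1 both were called, at -0.41 (edgeR adjusted p = 0.0218) and -0.55 (edgeR adjusted p = 0.0233). Without KO replicate 3 both were at -0.09 and not called (edgeR adjusted p = 0.378 and 0.641). Polr1d, a subunit shared with RNA polymerase III, had 127, 116 and 128 CPM in KO and 139.9, 139.7 and 133 CPM in WT libraries. Its KO values were all below its WT values, but the difference was small, at -0.15 on the log2 scale (SE 0.06, edgeR adjusted p = 0.0792). Polr1d passed without KO replicate 3 (edgeR adjusted p = 0.0380) and with upper-quartile scaling (edgeR adjusted p = 0.0389). It did not pass without KO replicate 1 (edgeR adjusted p = 0.0547). Polr1c, also shared with RNA polymerase III, and Polr1e, specific to RNA polymerase I, had log2 fold changes of -0.03 and -0.01 with 95% intervals from -0.21 to 0.15 and from -0.33 to 0.30.

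The snoRNP proteins went in both directions. Box C/D particles guide methylation of ribosomal RNA, and their methyltransferase fibrillarin, Fbl, had 202, 171 and 148 CPM in KO libraries and 211, 212 and 235 CPM in WT libraries. All 3 KO values lay under the WT values, and Fbl fell to 0.791 times its WT level (log2 fold change -0.34, SE 0.11, edgeR adjusted p = 0.0358). The scaffold genes of the same particle were not called. Nop56 had 411, 318 and 228 CPM in KO and 306, 333 and 354 CPM in WT libraries, with KO replicate 1 above every WT library and KO replicate 3 below every one (log2 fold change -0.05, 95% interval -0.47 to 0.37). Nop58 had 278, 204 and 144 CPM in KO and 182, 198 and 219 CPM in WT libraries, with the same placing of replicates 1 and 3 (log2 fold change 0.07, 95% interval -0.41 to 0.54). H/ACA particles guide pseudouridylation, and Nop10, one of their small core proteins, was the one snoRNP gene that rose, with 72.2, 62.4 and 52.6 CPM in KO and 45.2, 51.2 and 49.3 CPM in WT libraries. The groups did not overlap, with KO replicate 3 only just above the highest WT library (log2 fold change 0.36, SE 0.11, edgeR adjusted p = 0.0313). Dkc1, the pseudouridine synthase of these particles and a component of telomerase, had 152, 107 and 76.6 CPM in KO and 146, 148 and 155 CPM in WT libraries. Its KO replicate 1 sat inside the WT range and its KO replicate 3 was lower relative to the WT mean than that of any other member. Dkc1 was not called with all libraries (log2 fold change -0.43, SE 0.21, edgeR adjusted p = 0.125). It was at -0.71 without KO replicate 1 (edgeR adjusted p = 0.00409) and at -0.23 without KO replicate 3 (edgeR adjusted p = 0.194). Gar1, the remaining H/ACA protein measured, had a log2 fold change of -0.15 (95% interval -0.46 to 0.16).

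UTP-A and UTP-B are the complexes that bind the nascent precursor first when the small-subunit processome forms. Of their genes, 0 of 7 were called, where 47.3% of all tested genes were. Nol11, a UTP-A subunit of metazoans, had 96.7, 75.3 and 66.5 CPM in KO and 66.2, 69.3 and 74.8 CPM in WT libraries. Utp15, another UTP-A subunit, had 80.8, 65.2 and 52.8 CPM in KO and 58.4, 61.8 and 66.4 CPM in WT libraries. Wdr43, a UTP-A subunit too, had 221, 162 and 114 CPM in KO and 171, 188 and 193 CPM in WT libraries. In all 3 genes KO replicate 1 was the highest of the 6 libraries, and for Utp15 and Wdr43 KO replicate 3 was the lowest. Their log2 fold changes were 0.18, 0.09 and -0.15, and leaving out KO replicate 3 moved Wdr43 to 0.04, while leaving out KO replicate 1 moved Utp15 to -0.08. The UTP-A genes Wdr75 and Utp4 and the UTP-B genes Utp6 and Utp18 had log2 fold changes between -0.02 and 0.06. The share of genes with KO replicate 1 above and KO replicate 3 below all WT libraries was 6 of 7 here, with Nol11 the exception. Over all tested genes it was 5.45%.

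Among 15 further factors of the small subunit, 2 rose and 2 fell, where 25.1% and 22.2% of all tested genes did. Utp14a, whose yeast counterpart stimulates the helicase that frees the U3 snoRNA from the precursor, had 89.9, 73.9 and 68.1 CPM in KO and 110.5, 109.8 and 117 CPM in WT libraries. KO libraries lay well below WT libraries, at 0.687 times the WT level (log2 fold change -0.54, SE 0.10, edgeR adjusted p = 0.00329). The retrogene copy Utp14b, on chromosome 1 where its annotation overlaps Acsl3, had 30.2, 24.6 and 20.5 CPM in KO and 25.3, 23.9 and 22.9 CPM in WT libraries and was not called (log2 fold change 0.06). The 2 genes are similar in sequence, so how reads were split between them is uncertain. Utp23, which in yeast acts with the snoRNA snR30, had 24.3, 21.8 and 21.7 CPM in KO and 15.6, 18.4 and 15.8 CPM in WT libraries. It rose to 1.36 times the WT level with no overlap of groups (log2 fold change 0.44, SE 0.10, edgeR adjusted p = 0.00742) and was 1 of 3 members whose KO values spread no more than its WT values on the log2 scale, the others being Nol12 and Nol4l. Rrp36, needed in yeast for early cleavages of the precursor, had 23.2, 22.4 and 20.9 CPM in KO and 17.4, 17.9 and 18.5 CPM in WT libraries. KO values lay close together and above WT (log2 fold change 0.31, SE 0.08, edgeR adjusted p = 0.0148). Rrp12, an export factor of pre-ribosomes in yeast, had 84.4, 73.1 and 54.0 CPM in KO and 91.7, 93.1 and 95.9 CPM in WT libraries. Rrp12 fell (log2 fold change -0.41, SE 0.14, edgeR adjusted p = 0.0443), with KO replicate 1 close under the WT libraries and KO replicate 3 far under them.

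The other 11 genes of that group were not called. Nol7 had 163, 137 and 124 CPM in KO and 125, 136 and 129 CPM in WT libraries, with KO replicate 1 the highest and KO replicate 3 the lowest of the 6. Utp11 had 78.0, 69.3 and 64.6 CPM in KO and 80.8, 82.0 and 81.0 CPM in WT libraries, without overlap, and missed the threshold (log2 fold change -0.20, edgeR adjusted p = 0.0604). It passed without KO replicate 1 (edgeR adjusted p = 0.00513) and with RLE scaling (the median-ratio method), upper-quartile scaling, either other low-count filter and DESeq2. Nop14 (log2 fold change -0.26) and Rrp7a (-0.10) were likewise called lower without KO replicate 1, and Rrp9, the U3 snoRNP protein (0.18), was called higher without KO replicate 3. Nop14 and Rrp7a were at -0.15 and -0.04 without KO replicate 3 (edgeR adjusted p = 0.155 and 0.655). Rrp9 was at 0.01 without KO replicate 1 (edgeR adjusted p = 0.921). The log2 fold changes of Nop9, Utp3, Nol10, Utp20 and Nol6, the UTP22 homologue, were -0.08, 0.05, 0.05, -0.04 and 0.00.

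Of 11 large-subunit factors, 3 fell and 0 rose, where 22.2% and 25.1% of all tested genes did. Rrp1b, one of the pair of mammalian relatives of yeast Rrp1, showed the largest difference of any member, with 87.6, 81.2 and 71.9 CPM in KO and 127, 128 and 139 CPM in WT libraries. Its KO mean of 80.2 ± 7.87 CPM was 0.611 times the WT mean of 131 ± 6.66 CPM (SD, n = 3 each; log2 fold change -0.71, SE 0.08, edgeR adjusted p = 0.000346). The paralog Rrp1 had 247, 251 and 232 CPM in KO and 278, 288 and 296 CPM in WT libraries. Rrp1 fell by much less, to 0.846 times WT (log2 fold change -0.24, SE 0.06, edgeR adjusted p = 0.0107), and its 3 KO libraries lay close together. Nop53, which in yeast recruits the RNA exosome to the large-subunit precursor, had 283, 316 and 354 CPM in KO and 465, 463 and 472 CPM in WT libraries. It fell to 0.681 times WT (log2 fold change -0.56, SE 0.08, edgeR adjusted p = 0.00111), and unlike most members its KO replicate 1 was the lowest library and its KO replicate 3 the highest of the KO libraries. Exons of 15 members overlap those of a gene on the other strand, so reads of such pairs cannot be told apart without strand. Among the called members these are Rrp1b (with Hsf2bp), Utp14a (with 9530027J09Rik) and Utp23 (with Gm34678). Members not called include Nop56 (with Idh3b), Dkc1 (with Mpp1) and Polr1a (with Gm26628).

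The remaining 8 large-subunit factors were not called. Nop16 (-0.33) and Wdr12 (-0.30), a subunit of the PeBoW complex, had log2 fold changes on the lower side and were called lower without KO replicate 1 (edgeR adjusted p = 0.00106 and 0.00727). Without KO replicate 3 they were at -0.23 and -0.16 and not called (edgeR adjusted p = 0.111 and 0.207). Nop2, a methyltransferase of ribosomal RNA, had 138, 114 and 79.9 CPM in KO and 108, 109 and 121 CPM in WT libraries. Nol8 had 56.9, 42.3 and 30.4 CPM in KO and 40.6, 42.8 and 44.7 CPM in WT libraries. For both genes the group means were nearly equal while KO replicate 1 was the highest and KO replicate 3 the lowest of the 6 libraries. Rrp15, Wdr74, Nol12 and Nol9, the kinase that acts in cleavage of the internal transcribed spacer, had log2 fold changes of 0.06, 0.06, -0.06 and -0.01.

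Npm1 and Ncl, the multifunctional genes with the highest counts among the members, both fell. Npm1, nucleophosmin, a histone chaperone of the nucleolus, had 2478, 2065 and 1918 CPM in KO libraries and 2977, 3059 and 3028 CPM in WT libraries. Ncl, nucleolin, an RNA-binding protein that acts in transcription and processing of the precursor, had 2008, 1615 and 1266 CPM in KO libraries and 2086, 2152 and 2222 CPM in WT libraries. In both genes all KO libraries lay below all WT libraries, for Ncl with KO replicate 1 close to the lowest WT library. Npm1 fell to 0.713 times WT (log2 fold change -0.49, SE 0.09, edgeR adjusted p = 0.00319) and Ncl to 0.757 times WT (log2 fold change -0.40, SE 0.14, edgeR adjusted p = 0.0489). Processed copies of Npm1 exist in the genome, so its count may include or lose reads of near-identical copies. Npm1 is also among the 30 genes of the authors' deposited table of centred log10 values, where it stood at -0.0139, -0.0703 and -0.126 in KO and 0.0659, 0.0749 and 0.0690 in WT libraries. In the authors' deposited table the difference of group means was -0.14 on the log10 scale, which is -0.46 on the log2 scale. Rrp8, a methyltransferase that also binds silent ribosomal RNA genes, had 37.2, 35.3 and 28.7 CPM in KO and 31.4, 34.1 and 35.5 CPM in WT libraries and a log2 fold change of 0.00393, which turned slightly negative under RLE and upper-quartile scaling. Nol4l had 10.4, 12.5 and 12.6 CPM in KO and 15.3, 11.7 and 12.9 CPM in WT libraries, which overlapped.

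Counts of the 48 members together made up 0.932%, 0.789% and 0.672% of KO libraries and 0.927%, 0.959% and 0.980% of WT libraries. KO replicate 1 thus lay inside the WT range and KO replicates 2 and 3 below it, and the difference did not pass (two-sided exact permutation p = 0.2, where 3 against 3 libraries allow no p below 0.1). Npm1 and Ncl held 47.6% to 48.4% of these counts in KO and 52.6% to 53.7% in WT libraries. Without these 2 genes, a choice made after seeing the values, the shares were 0.480%, 0.413% and 0.349% in KO and 0.429%, 0.445% and 0.465% in WT libraries (exact permutation p = 0.5).

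**Figure D2:**
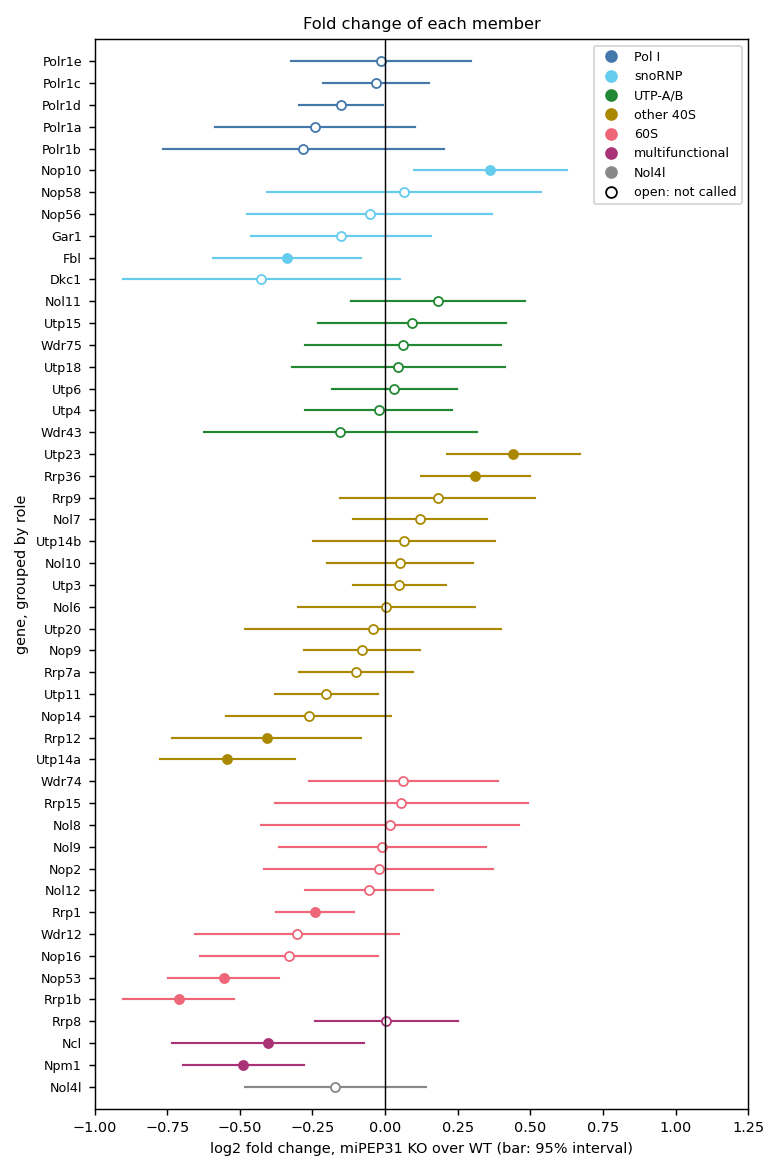
Log2 fold change of each member, miPEP31 KO over WT (horizontal axis), with its 95% interval, grouped and coloured by role; filled points are called and open points are not. The called members lie between -0.71 (Rrp1b) and 0.44 (Utp23), and 0 of the RNA polymerase I and UTP-A/UTP-B points are filled.

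In 24 members the KO libraries spread on both sides of WT. This pattern was noticed after the values were seen and is given as a description. KO replicate 1 was the highest of the KO libraries in 44 of 48 members and KO replicate 3 the lowest in 44 of 48, where these shares were 39.5% and 38.0% of all tested genes. In those 24 of 48 members KO replicate 1 lay above all WT libraries and KO replicate 3 below all of them, against 5.45% of all tested genes and 7.0% of the 9090 tested genes with a mean of at least 10 CPM, a level all members exceed. These 24 genes are all among the 37 not called, but such a placing itself makes the groups overlap and a call unlikely. KO replicate 1 exceeded all WT libraries in 29 members and KO replicate 3 was below all of them in 41, while KO replicate 2 lay inside the WT range in 18. The level in KO replicate 1 over that in KO replicate 3 had a median of 1.45 in the members and 1.02 in the 9090 genes, and reached 1.98 in Dkc1, 1.96 in Polr1b and 1.95 in Wdr43. The members that departed from the order of replicates 1, 2 and 3 were Nop53, Rrp1, Polr1c, Polr1d and Nol4l.

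Relative to the WT mean, the members' median log2 level was 0.17, -0.08 and -0.31 in KO replicates 1, 2 and 3 and between -0.06 and 0.06 in the WT libraries. For the 9090 genes it was 0.06, 0.02 and 0.01 in the KO libraries. The median standard deviation of log2 CPM was 0.271 among KO and 0.0736 among WT libraries in the members, and 0.111 among KO and 0.0693 among WT libraries in the 9090 genes. Some other values also differed between KO replicates 1, 2 and 3. Both CD8 T cell markers and all 5 B cell markers were, among the KO libraries, lowest in replicate 1 and highest in replicate 3, with sums of 15.9, 27.9 and 36.9 CPM and of 56.7, 70.9 and 103 CPM, where the CD8 T cell sum in WT libraries was 12.5 to 15.8 CPM. The macrophage marker list (65.4, 42.2 and 33.5 CPM in sum) and the NK cell marker list (21.9, 16.3 and 10.9 CPM in sum in KO and 5.57 to 7.88 CPM in WT libraries) each rested on a single gene. These were Mpeg1, given above, and Eomes, with 21.3, 15.2 and 9.88 CPM in KO and 6.84, 4.56 and 4.61 CPM in WT libraries. Cd68, Lyz2, Csf1r, Klre1 and Ncr1 of the same lists were instead, among the KO libraries, highest in replicate 3, and Klrb1c in replicate 2. Ncr1, Klrb1c and Klre1, the other NK cell markers, were at most 1.18 CPM in any library. The part of these values in the pattern was not tested. The share of counts in ribosomal protein genes was lowest in KO replicate 2, at 7.38%, 7.01% and 7.44% in KO and 7.81%, 7.88% and 7.81% in WT libraries. Myc, which is no member and was looked at after the values were seen, had 246, 214 and 143 CPM in KO libraries and 270, 262 and 312 CPM in WT libraries. Its KO values lay below its WT values with KO replicate 3 the lowest, but it missed the threshold (log2 fold change -0.48, SE 0.18, edgeR adjusted p = 0.0527), and its part in the members' levels was not tested.

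**Figure D3:**
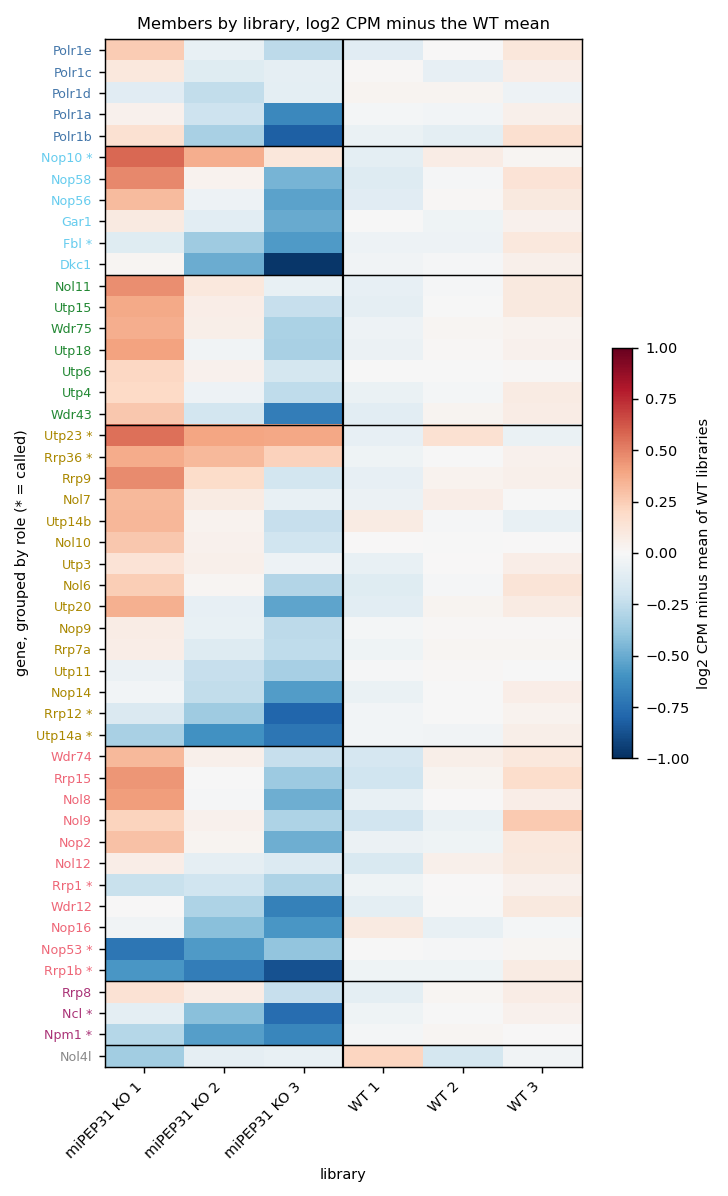
Log2 CPM of each member minus its mean over the WT libraries (colour, from -1 in blue to 1 in red), with the miPEP31 KO libraries left of the WT libraries and genes grouped by role; an asterisk marks called members. The column of KO replicate 1 is mostly red and that of KO replicate 3 mostly blue, while the WT columns are pale.

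**Figure D4:**
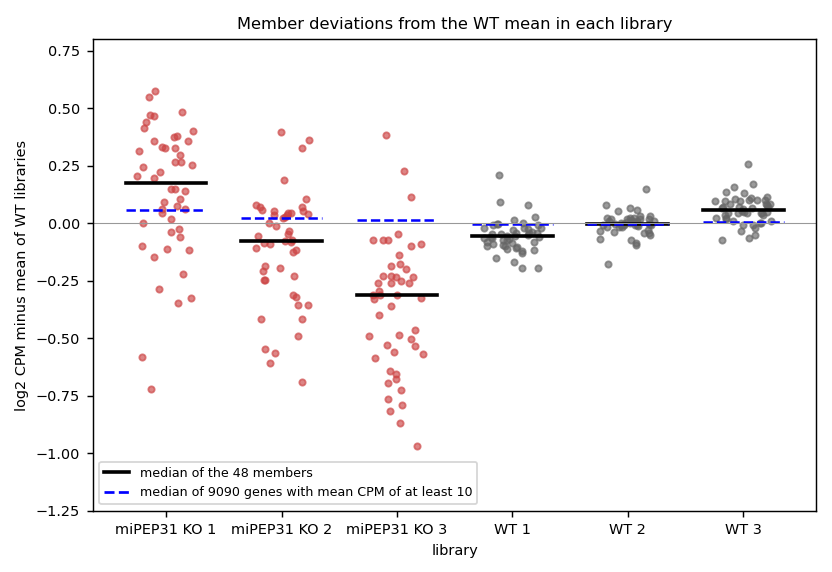
The same deviations (vertical axis, log2 CPM minus the mean of the WT libraries) with each point a member, by library; black lines are the medians of the 48 members and dashed blue lines those of the 9090 tested genes with a mean of at least 10 CPM. The black line moves over 0.17, -0.08 and -0.31 in KO replicates 1, 2 and 3, while the blue line stays between 0.01 and 0.06.

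The counts of calls depended on which KO library was present. Without KO replicate 1, 3 members were higher and 16 lower, where 24.7% and 23.1% of all tested genes were, and the members' median log2 fold change was -0.18. Without KO replicate 3, 4 were higher and 9 lower, where 24.6% and 24.3% of all tested genes were, and the median was 0.07. Without KO replicate 2 the counts were 1 higher and 5 lower, against 18.9% and 17.4% of all tested genes. Without WT replicate 1, 2 or 3, the members called higher numbered 1, 1 and 2 (18.9%, 18.4% and 19.6% of all tested genes), and those called lower 5 each time (16.6%, 16.4% and 17.1%). The calls of Rrp1b, Nop53, Npm1, Utp14a, Rrp1 and Utp23 held without any 1 of the 6 libraries. Those of Fbl, Ncl, Rrp12 and Nop10 were lost without KO replicate 2 and without each WT replicate (edgeR adjusted p up to 0.124 for Fbl, 0.134 for Ncl, 0.1201 for Rrp12 and 0.116 for Nop10), and that of Rrp36 without KO replicate 2 and WT replicates 1 and 2 (edgeR adjusted p up to 0.0584). The groups of KO and WT libraries did not overlap in 13 members, where they did not in 59.1% of all tested genes: 3 with KO above (30.6% of all tested genes) and 10 with KO below (28.4% of all tested genes).

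Other genes of the pathway, from a list of 105 symbols, were counted in the same fit. Of the 103 tested, 12 were higher and 10 lower in KO, or 21.4% against 47.3% of all tested genes, with a median log2 fold change of -0.04. Exosc6 had too few counts and Riok2 was not analysed here. Over all tested genes 25.1% were higher and 22.2% lower, and the counts of each list below are to be read beside these shares. Of 10 genes for RNA polymerase I initiation and its remaining subunits, 4 rose and 1 fell. The subunit gene Cd3eap fell (log2 fold change -0.53, SE 0.11, edgeR adjusted p = 0.00468), and Taf1d, of the promoter selectivity factor SL1, rose (0.39, SE 0.11, edgeR adjusted p = 0.0232). Among 12 snoRNP partners and assembly factors, 1 rose and 2 fell, with the H/ACA assembly factor Naf1 at -0.50 (SE 0.09) and the box C/D assembly factor Nufip1 at -0.31 (SE 0.06). Of 30 further small-subunit factors, 2 rose and 1 fell. The U3 snoRNP protein gene Imp4 was at 0.53 (SE 0.10) and Ngdn at 0.45 (SE 0.10). Among 40 large-subunit and export factors, 3 rose and 4 fell. Ddx24, a DEAD-box protein, was at 0.81 (SE 0.07) and Nsa2 at -0.26 (SE 0.05). In the RNA exosome, which trims precursor ends, 2 of 11 rose and 2 fell. Its genes Exosc8 and Exosc5 were at -0.60 (SE 0.07) and -0.46 (SE 0.08). In 45 of the 103 genes KO replicate 1 stood above and KO replicate 3 below all WT libraries, against 5.45% of all tested genes. Without KO replicate 1, 11 of the 103 were higher and 37 lower (24.7% and 23.1% of all tested genes), and without KO replicate 3, 22 were higher and 11 lower (24.6% and 24.3% of all tested genes).

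Several members share features that their symbols do not give. Members lay on 18 chromosomes. In GRCm38 coordinates, Rrp1b lies on chr17:32036100-32062865, Nop53 on chr7:15936183-15946074, Utp14a on chrX:48256862-48282453, Npm1 on chr11:33152287-33163206, Ncl on chr1:86344719-86359400 and Utp23 on chr15:51877429-51884614. In GENCODE M21 (GRCm38), 6 members carry snoRNA genes within their gene bodies on the same strand, 17 in all: Nop56 holds 5, Nop58 holds 4, Wdr43 and Ncl hold 3 each, and Nop53 and Dkc1 hold 1 each. The level in KO replicate 1 over that in KO replicate 3 had a median of 1.86 in these 6 genes and 1.41 in the other 42. This split was looked at after the pattern was seen and is a description only. Nop53, 1 of the 6, had the lowest ratio of all members, 0.798. Of the 6, 2 were called lower (Nop53 and Ncl), where 22.2% of all tested genes were.

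Promoters were read from RefSeq windows (GRCm38.p6) of 250 bases before to 50 after the start, of which 40 members had 47. The E-box CACGTG, the palindromic site that MYC and MAX bind, was found in 8 of 47 member windows (17.0%) and in 7.15% of all 32851 windows. In the 104 windows of the related pathway genes given above it was in 16.3%, so it was not particular to the members. The windows with an E-box belong to Nol11, Nop2, Rrp7a, Utp14b, Utp18, Utp20, Utp4 and Wdr43. Of these 8 genes 0 were called, where 22.9% of the members and 47.3% of all tested genes were, and their log2 fold changes lay between -0.15 and 0.18. In 7 of the 8, KO replicate 1 lay above and KO replicate 3 below all WT libraries, where it did so in 24 of the 48 members and 5.45% of all tested genes. Such a placing makes a call unlikely, so the counts of calls and of placings are not separate results. No relation between the E-box and that placing was tested. The ETS motif CCGGAAG, on either strand, was in 29.8% of member, 46.2% of related and 8.86% of all windows. CCAAT was in 29.8% of member, 40.4% of related and 37.4% of all windows. TATAAA was in 8.51% of member, 4.81% of related and 13.6% of all windows. Both were also searched on either strand. The palindromic NRF1 consensus was in 0 member windows, 3.85% of related windows and 0.971% of all windows. A match is a description of the letters and not of binding. The 4 E-boxes that lie within the last 100 bases before the start are shown because 3 of these 4 genes, all but Nol11, are among the 24 with KO libraries on both sides of WT. Each line gives these 100 bases 5′ to 3′ on the gene's strand, with the E-box in capitals, for Utp18 (chr11:93885767-93885866, minus strand), Nol11 (chr11:107189382-107189481, minus strand), Nop2 (chr6:125131783-125131882, plus strand) and Utp14b (chr1:78658340-78658439, plus strand).
Utp18: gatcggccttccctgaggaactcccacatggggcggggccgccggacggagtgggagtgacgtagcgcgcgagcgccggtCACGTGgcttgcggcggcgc
Nol11: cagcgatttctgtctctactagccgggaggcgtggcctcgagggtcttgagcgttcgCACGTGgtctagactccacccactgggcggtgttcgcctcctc
Nop2: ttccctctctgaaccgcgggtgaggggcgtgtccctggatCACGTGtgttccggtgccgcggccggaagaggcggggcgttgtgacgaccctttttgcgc
Utp14b: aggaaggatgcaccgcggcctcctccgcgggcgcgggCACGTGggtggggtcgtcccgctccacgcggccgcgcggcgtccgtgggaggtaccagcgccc
The E-box begins 20 bases before the RefSeq start in Utp18, 43 in Nol11, 60 in Nop2 and 63 in Utp14b. For Utp14b this start is not the GENCODE M21 start, since the stretch lies inside its gene body there (chr1:78658038-78671512). Exons of Utp14b overlap those of Acsl3 on the same strand, so its E-box is not tied to Utp14b alone. Utp18 had 80.6, 59.7 and 48.8 CPM in KO and 58.8, 61.5 and 62.9 CPM in WT libraries, so that its KO replicate 2 fell among the WT libraries, its KO replicate 1 above them and its KO replicate 3 below them.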

How the data were processed

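RNA-seq of 6 libraries, 3 miPEP31 KO and 3 WT, was analysed. Trizol extraction and a TruSeq RNA kit were used, per the labels' protocols. Bowtie 0.12.2 and the build mm8 appear in the submitters' processing notes with no step attached. Not given in the sources used here are the counting program, the annotation behind it and any use of strand. The authors deposited estimated counts per gene, which were rounded to whole numbers here, and a table of centred log10 values for 30 genes. The base of those values was read from their slope of 0.303 on centred log2 CPM, where 0.301 is the log10 of 2. Of 52856 rows, 51912 carried Ensembl IDs, of which 51719 had a symbol in the reference tables. The other 944 rows held 0.903% to 1.56% of a library's counts and stayed in the fit.

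Rows were kept with filterByExpr of edgeR 4.0.16 (minimum count 10, 14387 rows), scaled with TMM and fitted without covariates, and the robust quasi-likelihood test compared KO with WT, under R 4.3.3. All 48 members passed this filter. Each standard error divides the log2 fold change by the root of the F statistic. Log2 levels per library used a pseudocount of 0.01 CPM. DESeq2 1.42.0, limma-voom (limma 3.58.1) and other scalings and filters were alternatives, run on the same libraries. The edgeR, DESeq2 and limma-voom fits were also run on simulated counts with known fold changes. That simulation gave both groups the same spread for each gene. It therefore cannot show how the fits behave when KO libraries spread more than WT libraries, as they did here. By a chi-square per gene, the variance between library pairs was 5.07 to 8.43 times that of sampling noise within WT. Within KO it was 14.8 to 40.4 times. Gene positions and overlaps come from GENCODE M21 (GRCm38) through the gene IDs.

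Members and lists were chosen with earlier results of these data known. Library values are given for the 3 members of each role with the smallest p, the most abundant of each role and the 5 largest fold changes, and from each related list the 2 genes with the smallest p are named. Rrp12, Nop58, Utp14b, Utp11, Nop2, Nol8, Utp18 and Myc were added after their values were seen.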

Additional observations from a re-analysis of the deposited data

How the results depend on the processing

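At 22865487 counts or more per library, every member was counted in all 6 libraries. Across the 21 members taken by the naming rule and 15 alternative settings, 273 results kept their direction and side of the threshold, 23 lost their call, 5 gained one and 14 changed sign. Rrp12, outside this tally, lost its call with plain library sizes, with no filter on low counts, with a replicate block, and without KO replicate 2 or any WT replicate. With plain library sizes, 5 members and 6 related genes were called lower; Fbl (edgeR adjusted p = 0.0525) and Ncl (edgeR adjusted p = 0.0657) lost their calls. With no filter on low counts Ncl was at an edgeR adjusted p of 0.181, and with a filter of 1 CPM in 3 libraries at 0.0507. Rrp8 changed sign, at -0.0136 with RLE scaling and with DESeq2, -0.0119 without the filter, -0.0334 with upper-quartile scaling, -0.00425 with the 1 CPM filter, -0.00171 with limma-voom, -0.00241 with a replicate block and -0.000219 without rows lacking an Ensembl ID. The cause was not tested. Leaving out each library in turn gave 1 to 4 members higher, 5 to 16 lower, a median member log2 fold change from -0.18 to 0.07, 4 to 22 related genes higher, 6 to 37 lower, 2723 to 3655 of all genes higher and 2419 to 3594 lower, and a difference in the members' share of counts from -0.225 to -0.0950 percentage points. It moved the log2 fold change of Rrp8 between -0.0735 and 0.0943, of Utp15 between -0.0768 and 0.217, of Nop56 between -0.279 and 0.125 and of Wdr43 between -0.422 and 0.0419. Replicate numbers are shared by the groups. Deviations of same-numbered KO and WT libraries had correlations of 0.00103, -0.00718 and -0.0156 over 14387 genes, so no shared deviation by number was seen. These values cannot show whether same-numbered libraries were handled together, and the labels do not say. With a replicate block, 1 member was higher and 6 lower (21.2% and 18.7% of all tested genes), and 6 related genes were higher and 6 lower; Nop10, Rrp36, Fbl, Ncl and Rrp12 lost their calls and Nop16 gained one.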
